A study of Mus musculus with 7 samples.

Results

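Semaphorins, plexins, neuropilins, ephrins, Eph receptors, Slits and Robos were examined in cells washed from the airspaces of the lung (bronchoalveolar lavage, BAL). Members were all genes whose symbol begins with Sema3 to Sema7, Plxn, Epha, Ephb, Efna or Efnb, or is Nrp1, Nrp2, Robo1 to Robo4 or Slit1 to Slit3, and whose mean normalized count over 7 libraries was at least 5. The rule kept 30 of 37 matching genes out of 16476 in the table. They were 11 semaphorins, 8 plexins, 2 neuropilins, 3 ephrins, 5 Eph receptors and 1 Slit. No Robo gene reached the minimum, and Robo2 averaged 2.21 normalized counts. Efna2 lay just above the minimum with a mean of 5.26 and Sema4g just below it with 4.94.

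The Ntn1 knockout group held 3 libraries from C57BL/6 mice of the genotype Netrin1loxp/loxp LysM Cre, and the control group 4 libraries from C57BL/6 LysM Cre mice. Both groups carried Cre, which the lysozyme M locus drives in macrophages, monocytes and neutrophils, and only the knockouts carried floxed Ntn1, the gene for the guidance protein netrin-1. All mice had received lipopolysaccharide (LPS, a bacterial cell wall component) into the trachea 3 days before lavage, so no unchallenged group was compared, and neutrophils had been removed with antibodies. Whether libraries stand for separate mice is not in the labels, so the p-values describe variation among libraries, and how much of it is technical is not known. Between libraries of the same group it was larger than counting error alone would give (chi-square per gene 7.85 to 31.8).

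Semaphorins are secreted or membrane-bound ligands first described as axon guidance cues, and plexins are their main receptors. Neuropilins are coreceptors that let class 3 semaphorins act through plexins. Ephrins and Eph receptors are both held in cell membranes and signal at cell contacts, and Slits are secreted ligands of Robo receptors. In leukocytes these families are known for control of adhesion, migration and cell contacts.

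Whole reads recovered from the deposited values came to between 9903284 and 13353733 per library. Ntn1, the targeted gene, held 1, 0 and 1 reads in knockouts, against 1, 4, 9 and 3 in controls (log2 difference -1.53, 2-sided exact permutation p = 0.0571, where 0.0286 is the smallest p of this design). Its loss was thus not established by this test at this depth. The rate of the summed reads, 17 against 2, was 6.77 times as high in controls, with exact 95% bounds of 1.61 and 60.4 for counting error alone. Lyz2, the gene at the Cre locus, stood at 936, 1052 and 909.7 normalized counts in knockouts, against 76927, 770.1, 721 and 118781 in control replicates 1 to 4. Control replicates 1 and 4 therefore stood apart, and results below are also given without them. Knockout replicate 1 stood apart in other genes: its neutrophil markers summed to 66629.7 normalized counts, against 22333 and 23171 in the other knockouts, and its erythroid markers to 136629.8, against 10585 and 6929.7. Without it, Nrp2 alone of the called members below lost its call and Efnb1 gained one. Markers of BAL macrophages such as Marco were present, at 277 to 672 normalized counts in knockouts and 224 to 772 in controls.

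In knockouts 5 of the 30 guidance genes rose and 6 fell with an adjusted p below 0.05 (limma on log2 of the normalized count plus 1, Benjamini-Hochberg over 14562 genes). That is 36.7% of the members, where 20.0% of all genes tested were called, 9.33% higher and 10.7% lower. One of the 5, Sema6a, reached the minimum through its knockout values alone, so that it had to differ. Of the 29 members whose mean was at least 5 in each group, 4 rose and 6 fell (34.5%). Receptors for semaphorins were lower where they were called: 3 of 8 plexins and 1 of 2 neuropilins fell and none rose. Semaphorins went both ways, with 4 of 11 higher and 2 lower, or 3 of 10 higher apart from Sema6a. Of 5 Eph receptors 1 rose, and no ephrin or Slit was called. The groups did not overlap for 11 members (36.7%), Sema6a among them, against 32.4% of all genes tested. The median log2 fold change was 0.02 over the members and 0.01 over all genes, and the median absolute log2 fold change was 0.52 and 0.24. Against control replicates 2 and 3 alone, 3 members were higher and 4 lower, where 8.36% of all genes were called. All 7 were among the 11. Without knockout replicate 1, 6 members were higher and 5 lower. Without knockout replicate 2, 2 members were higher. In the authors' deposited table the same 11 members had an adjusted p under 0.05, as had 2955 of 14551 of the tested genes with a value (20.3%).

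**Figure D1:**
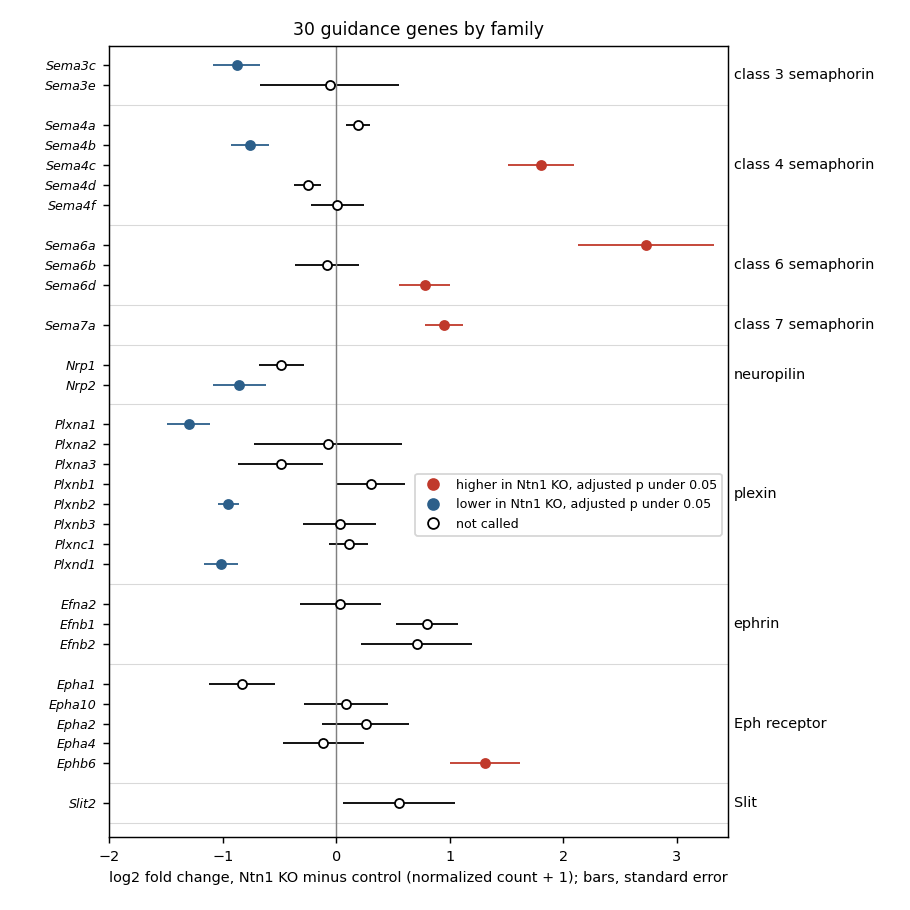
Log2 fold change of each of the 30 guidance genes, knockout minus control, on the scale of log2(normalized count + 1), grouped by family; bars are the standard error of the limma fit over 3 knockout and 4 control libraries. Filled points passed an adjusted p under 0.05: Plxna1, Plxnb2, Plxnd1, Nrp2, Sema3c and Sema4b lie to the left of 0, and Sema4c, Sema6a, Sema6d, Sema7a and Ephb6 to the right.

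Plxnb2 (ENSMUSG00000036606, GRCm38 chromosome 15, 89155549 to 89180788) encodes plexin B2, a receptor of class 4 semaphorins. Its normalized count was 1460.2, 1261 and 1498 in knockouts, against 2572, 2639, 2551 and 3115 in controls. The 3 knockout libraries lay below all controls, and the means were 1406 ± 127 (SD, n = 3) and 2719 ± 266 (SD, n = 4). The log2 fold change was -0.95 (SE 0.09, limma adjusted p = 0.000603), the lowest p among the members, and it was -0.89 without control replicates 1 and 4 (limma adjusted p = 0.0064).

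Plxna1 (ENSMUSG00000030084, chromosome 6, 89316314 to 89362620) encodes plexin A1, a receptor of class 3 semaphorins with neuropilins and of Sema6D. It stood at 1785, 2355 and 2801 normalized counts in knockouts, against 6706, 5528, 4149 and 6409 in controls. All knockouts were again below all controls, and control replicate 3 came closest to them. The log2 fold change was -1.30 (SE 0.19, limma adjusted p = 0.00276), and -1.07 without control replicates 1 and 4 (limma adjusted p = 0.0289). Its exons share 970 of 9054 bases with Gm26811 on the opposite strand, which averaged 25.4 normalized counts.

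Plxnd1 (ENSMUSG00000030123, chromosome 6, 115954811 to 115995005) encodes plexin D1, a receptor of Sema3E and Sema4A. Its normalized count was 2475, 2643 and 3261 in knockouts, against 6716, 4895, 4713 and 6448 in controls. The groups did not overlap, and control replicates 2 and 3 lay between the knockouts and control replicates 1 and 4. The log2 fold change was -1.02 (SE 0.15, limma adjusted p = 0.00281), and -0.79 without control replicates 1 and 4 (limma adjusted p = 0.0186).

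Nrp2 (ENSMUSG00000025969, chromosome 1, 62703285 to 62818695) encodes neuropilin 2, a coreceptor of class 3 semaphorins and of vascular endothelial growth factor C. It stood at 2215, 3707 and 4290.1 normalized counts in knockouts, against 7059.6, 6175, 4291 and 6603 in controls. Knockout replicate 3 and control replicate 3 were nearly equal, so the groups only just failed to overlap. The log2 fold change was -0.85 (SE 0.24, limma adjusted p = 0.0339). The call was lost when control replicate 1, 2 or 4 or knockout replicate 1 or 2 was left out (limma adjusted p 0.019 to 0.086 over the 7 libraries left out in turn). It was also lost without control replicates 1 and 4 (limma adjusted p = 0.192) and without control replicates 2 and 3 (limma adjusted p = 0.053).

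The promoters of 3 of these falling receptors are shown as a description, and common control of the genes was not tested. Plxna1 had no promoter entry and is not shown. They are RefSeq sequences on GRCm38.p6, 300 bases each (250 before to 50 after the start), for Plxnb2 at chr15:89180739-89181038 (minus strand), Plxnd1 at chr6:115994956-115995255 (minus strand) and Nrp2 at chr1:62703067-62703366 (plus strand). Capitals mark GGGCGG, the GC box, and GAGGAA, the core bound by the myeloid factor PU.1, each on either strand.
Plxnb2: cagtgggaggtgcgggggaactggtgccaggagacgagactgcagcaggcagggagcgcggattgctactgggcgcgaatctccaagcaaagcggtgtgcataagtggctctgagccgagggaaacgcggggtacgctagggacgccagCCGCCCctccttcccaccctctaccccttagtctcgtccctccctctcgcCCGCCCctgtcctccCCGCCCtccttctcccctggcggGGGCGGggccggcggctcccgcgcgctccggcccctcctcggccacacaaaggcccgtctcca
Plxnd1: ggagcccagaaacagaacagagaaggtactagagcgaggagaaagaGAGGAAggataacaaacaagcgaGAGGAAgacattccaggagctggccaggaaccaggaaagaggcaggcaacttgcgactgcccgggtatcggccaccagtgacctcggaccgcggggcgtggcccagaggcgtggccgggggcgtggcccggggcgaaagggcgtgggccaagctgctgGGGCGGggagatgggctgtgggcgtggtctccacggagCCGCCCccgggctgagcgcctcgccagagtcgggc
Nrp2: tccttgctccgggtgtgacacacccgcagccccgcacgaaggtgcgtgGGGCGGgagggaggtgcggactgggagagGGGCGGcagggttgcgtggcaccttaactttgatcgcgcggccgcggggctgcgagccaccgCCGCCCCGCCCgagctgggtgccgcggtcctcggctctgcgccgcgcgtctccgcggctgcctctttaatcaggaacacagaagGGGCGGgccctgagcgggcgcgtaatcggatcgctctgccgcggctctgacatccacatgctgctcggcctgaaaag
The GC box occurred 4 times in the Plxnb2 window, 2 times in that of Plxnd1 and 5 times in that of Nrp2, where 1 pair overlaps by 1 base. GAGGAA occurred 2 times in the Plxnd1 window and 0 times in the others. These are matches of letters and not shown sites.

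The other semaphorin receptors were not called. Plxnc1, the receptor of Sema7A, stood at 896, 879.8 and 696 normalized counts in knockouts, against 883, 712, 564 and 938 in controls (log2 fold change 0.11, SE 0.17, limma adjusted p = 0.694). Its groups overlapped fully. Nrp1, the other neuropilin, stood at 187, 340.4 and 236, against 399, 302, 295 and 398 (log2 fold change -0.48, SE 0.20, limma adjusted p = 0.122), and knockout replicate 2 lay within the control range. Without that library Nrp1 was called lower (log2 fold change -0.71, limma adjusted p = 0.0358). Plxna2, Plxna3, Plxnb1 and Plxnb3 were low, with means of 5.12 to 20.1 normalized counts in knockouts and 5.96 to 19.7 in controls, and log2 fold changes between -0.49 and 0.30.

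Divided by exon length, the abundant receptors were the ones that fell. Plxnd1 averaged 383 normalized counts per kilobase of exon in knockouts and 779.8 in controls, Plxna1 256 and 629, Nrp2 287 and 509, and Plxnb2 182 and 352. The sum over the 10 plexins and neuropilins was 1043, 1246 and 1426 per kilobase in knockouts, against 2742, 2268, 1899 and 2712 in controls, with no overlap. Most of this sum came from Plxnd1, Plxna1, Nrp2 and Plxnb2, each called lower, so it restates their difference and is not a separate result about the family. Plxnc1 made up 10.9% ± 2.52 (SD, n = 3) of the plexin sum in knockouts and 4.95% ± 0.346 (SD, n = 4) in controls, while Plxna1 held 27.4% ± 3.38 and 33.7% ± 2.36. The level of Plxnc1 itself was 98.7 per kilobase in knockouts and 92.7 in controls and was not called, so its larger share reflects the smaller sum. In bulk RNA, fewer cells of a type and less RNA per cell cannot be told apart.

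**Figure D2:**
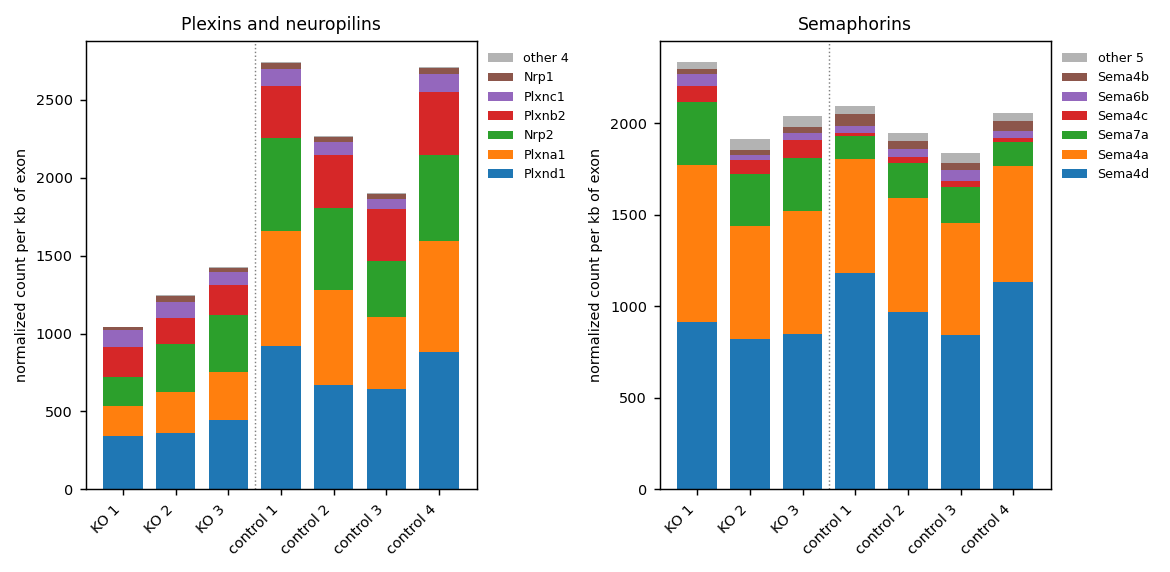
Summed level of plexins and neuropilins (left) and of semaphorins (right) in each library, in normalized counts per kilobase of exon, with 1 colour per gene and the lowest genes pooled in grey. The receptor bars of the 3 knockouts, at 1043 to 1426, are below those of the 4 controls, at 1899 to 2742, while the semaphorin bars overlap. Most of each receptor bar is Plxnd1, Plxna1, Nrp2 and Plxnb2, which were each called lower.

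Sema4c (ENSMUSG00000026121, chromosome 1, 36548639 to 36558349) encodes a transmembrane semaphorin that binds plexin B2. It stood at 409.7, 349 and 445 normalized counts in knockouts, against 66, 166, 156 and 96.6 in controls. Every knockout library was above every control, with means of 401 ± 48.7 (SD, n = 3) and 121 ± 47.9 (SD, n = 4). The log2 fold change was 1.81 (SE 0.29, limma adjusted p = 0.00406). Without control replicates 1 and 4, where Sema4c was lowest, it was 1.31 (limma adjusted p = 0.00457). Sema4c RNA was thus higher and Plxnb2 RNA lower in the same libraries, and a link between the 2 was not tested. Sema4d, a more abundant ligand of plexin B2, was not called (log2 fold change -0.25, limma adjusted p = 0.172). The exons of Sema4c share 334 bases with D430040D24Rik on the opposite strand, which averaged 7.62 normalized counts.

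Sema7a (ENSMUSG00000038264, chromosome 9, 57940112 to 57962865) encodes a semaphorin anchored by a glycolipid that binds plexin C1 and beta 1 integrins. It stood at 1122, 933 and 958 normalized counts in knockouts, against 412, 625, 639 and 439 in controls. The knockouts were all higher, and control replicates 2 and 3 again lay nearer to them than the other two. The log2 fold change was 0.95 (SE 0.17, limma adjusted p = 0.0057), and 0.66 without control replicates 1 and 4 (limma adjusted p = 0.0177). Itgb1, the beta 1 integrin gene, averaged 10921 normalized counts in knockouts and 10707 in controls and was not called (log2 fold change 0.03, limma adjusted p = 0.848).

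The promoters of both rising ligands are printed as for the receptors, Sema4c at chr1:36558332-36558631 (minus strand) and Sema7a at chr9:57939862-57940161 (plus strand), with GGGCGG and, in Sema4c, the AP-1 motif TGANTCA in capitals, on either strand.
Sema4c: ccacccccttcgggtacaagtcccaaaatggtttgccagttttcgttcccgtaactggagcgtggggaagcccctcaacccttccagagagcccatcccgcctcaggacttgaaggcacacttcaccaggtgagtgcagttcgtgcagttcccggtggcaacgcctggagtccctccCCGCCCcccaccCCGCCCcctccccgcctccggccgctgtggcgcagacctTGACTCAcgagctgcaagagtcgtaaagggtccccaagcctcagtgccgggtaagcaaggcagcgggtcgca
Sema7a: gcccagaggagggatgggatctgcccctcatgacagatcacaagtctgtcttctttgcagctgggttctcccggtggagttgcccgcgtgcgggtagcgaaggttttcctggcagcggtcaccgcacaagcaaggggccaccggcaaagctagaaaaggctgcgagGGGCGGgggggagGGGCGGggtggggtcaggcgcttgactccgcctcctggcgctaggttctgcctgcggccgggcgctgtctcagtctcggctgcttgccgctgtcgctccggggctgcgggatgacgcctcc
Each window held 2 GC boxes, and that of Sema4c held 1 AP-1 match. Neither window held GAGGAA, nor the TATA box, written TATAAA, nor the E-box, written CACGTG. Of the 28 members with an entry, read at the start nearest to the annotated gene start, 24 (85.7%) held a GC box, against 62.7% of 10212 tested genes with an entry and 35.7% of all 32851 promoters of this length. The printed windows were 64.3% to 70.7% G and C, where the median was 60.5% over tested promoters and 52.7% over all. Whether the share with a GC box goes beyond this base content was not tested. GAGGAA occurred in 25% of the members, 27.4% of the tested genes and 28.3% of all promoters. TGANTCA occurred in 3.57%, 5.26% and 7.81%, TATAAA in 7.14%, 7.23% and 13.6%, and CACGTG in 7.14%, 10% and 7.15%.

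Sema6d and Sema6a, transmembrane ligands of class A plexins, were also higher. Sema6d stood at 203, 351 and 423 normalized counts in knockouts, against 159, 168, 192 and 208 in controls, and knockout replicate 1 lay within the control range. Its log2 fold change was 0.78 (SE 0.22, limma adjusted p = 0.04). It was no longer called without any single control, without knockout replicate 2 or without knockout replicate 3 (limma adjusted p 0.00208 to 0.126 over the 7 libraries left out in turn). Nor was it called without control replicates 1 and 4 (limma adjusted p = 0.134) or without control replicates 2 and 3 (limma adjusted p = 0.159).

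Sema6a was near the limit of detection and reached the minimum through the knockouts alone. It held 9, 16 and 12 reads in knockouts, against 0, 0, 3 and 2 in controls, where a count of 0 allows up to 3 reads in a library. The rate of the summed reads, 37 against 5, was 9.29 times as high in knockouts, with exact 95% bounds of 3.64 and 30.3 for counting error alone. Since the minimum on low values was passed through the group where it is high, its fitted log2 fold change of 2.73 (SE 0.60, limma adjusted p = 0.0143) is a description only. It did not pass the threshold without knockout replicate 2 (limma adjusted p = 0.0611). Sema6b, of the same class, stood at 267, 106 and 156 normalized counts in knockouts, against 156, 169, 232 and 148 in controls, and was not called (log2 fold change -0.08, limma adjusted p = 0.863).

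Sema4b and Sema3c were the semaphorins that fell. Sema4b (chromosome 7, 80186841 to 80226527), a transmembrane class 4 semaphorin, stood at 154, 165 and 174 normalized counts in knockouts, against 356, 237, 226 and 319 in controls, with no overlap. Its log2 fold change was -0.76 (SE 0.16, limma adjusted p = 0.0136), and -0.49 without control replicates 1 and 4 (limma adjusted p = 0.0521). Sema3c (chromosome 5, 17574281 to 17730268), a secreted ligand of neuropilin and plexin complexes, stood at 46.6, 75 and 74.1 in knockouts, against 119, 123, 141 and 94 in controls. All knockouts were lower, with a log2 fold change of -0.88 (SE 0.20, limma adjusted p = 0.0179). Sema3c was not called without control replicate 2 (limma adjusted p = 0.0508) or without control replicates 2 and 3 (log2 fold change -0.72, limma adjusted p = 0.128), and was called without control replicates 1 and 4 (log2 fold change -1.03, limma adjusted p = 0.0474).

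The most abundant semaphorins did not pass the threshold. Sema4d, known as CD100 on T cells and a ligand of plexins B1 and B2 and of CD72, stood at 7022, 6298 and 6511 normalized counts in knockouts, against 9088, 7446, 6475 and 8706 in controls (log2 fold change -0.25, SE 0.12, limma adjusted p = 0.172). It was called lower without control replicate 3 (log2 fold change -0.34, limma adjusted p = 0.0483) and without control replicates 2 and 3 (log2 fold change -0.43, limma adjusted p = 0.037), and was not called without control replicates 1 and 4 (log2 fold change -0.07, limma adjusted p = 0.698). Sema4a, an immune semaphorin that binds plexin D1, stood at 4638, 3347 and 3641, against 3368, 3361, 3319 and 3417 (log2 fold change 0.19, SE 0.10, limma adjusted p = 0.23), and only knockout replicate 1 was far above the controls. Sema3e, the ligand of plexin D1, ranged from 9.13 to 63.5 in knockouts and from 15 to 46 in controls, and Sema4f from 38.8 to 48.7 and from 34.2 to 62.8.

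Per kilobase of exon, Sema4d and Sema4a led the semaphorins in both groups, at 861 and 717 normalized counts in knockouts and 1033 and 623 in controls. Sema7a came next, at 304 in knockouts and 160.4 in controls. The semaphorin sum was 2333, 1914 and 2041 per kilobase in knockouts, against 2091, 1946, 1835 and 2057 in controls, and overlapped. Within it Sema7a held 14.5% ± 0.279 (SD, n = 3) in knockouts and 8.19% ± 2.30 (SD, n = 4) in controls, Sema4c 4.18% ± 0.499 and 1.35% ± 0.593, and Sema4d 41.2% ± 1.85 and 51.9% ± 4.90.

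**Figure D3:**
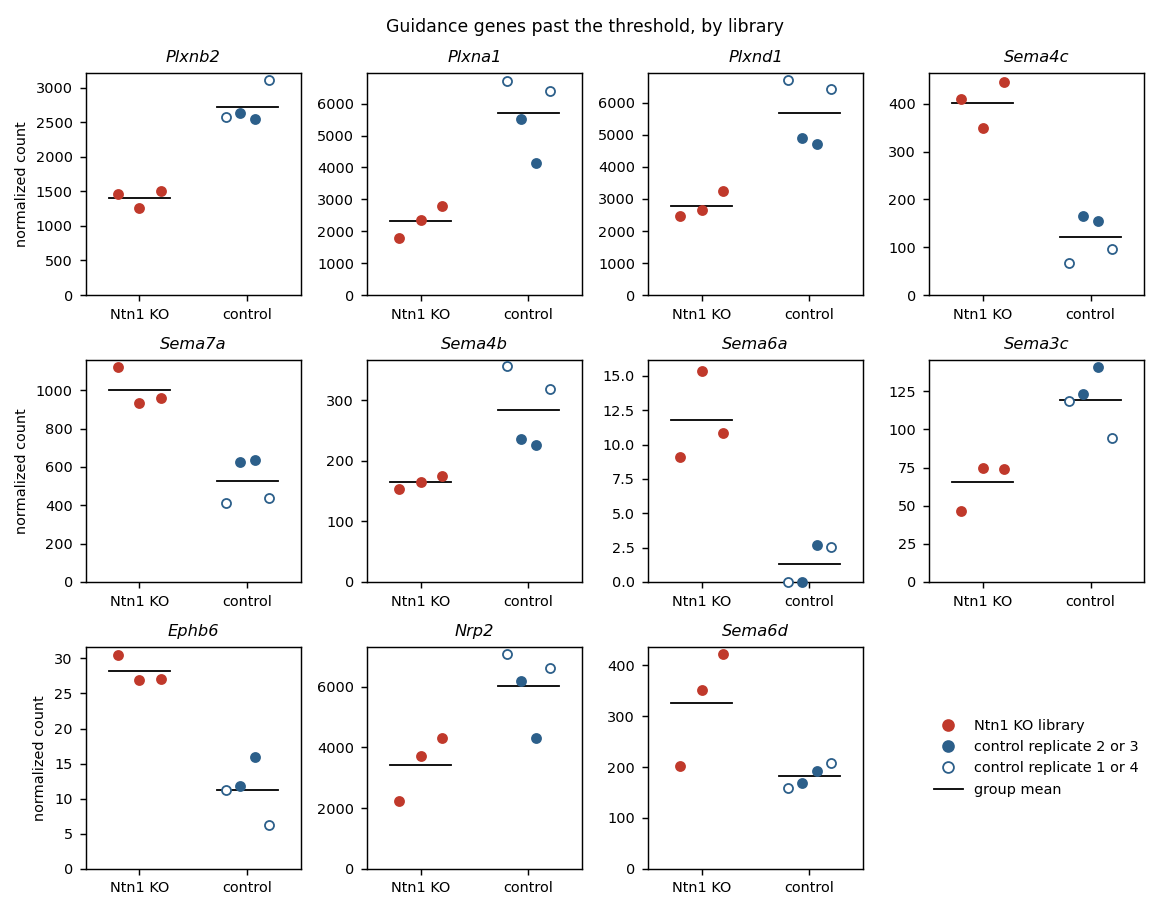
Normalized counts of the 11 guidance genes past the threshold in each library, knockouts left and controls right in each panel, with the axis starting at 0; lines are group means and open points are control replicates 1 and 4. The groups are apart for all panels except Sema6d, where the knockout library at 203 lies below the control library at 208.

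Eph receptors and ephrins were expressed at low levels. Ephb6, an Eph receptor without kinase activity known from T cells, stood at 30.4, 26.9 and 27.1 normalized counts in knockouts, against 11.2, 11.7, 15.9 and 6.27 in controls. All knockouts were higher, with a log2 fold change of 1.31 (SE 0.31, limma adjusted p = 0.0182). It was 0.99 and not called without control replicates 1 and 4 (limma adjusted p = 0.066), and it was not called without knockout replicate 2 (limma adjusted p = 0.0563). Epha1 stood at 13.2, 7.69 and 12.6 in knockouts, against 14.2, 22.5, 20.4 and 25.1 in controls. Its groups did not overlap, but it missed the threshold (log2 fold change -0.83, SE 0.29, limma adjusted p = 0.0769), and 236 of its 3928 exon bases lie opposite Zyx, which averaged 3257 normalized counts.

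Efnb2, the transmembrane ligand of EphB4 known from blood vessels, stood at 108, 48.1 and 75 normalized counts in knockouts, against 32.5, 64.6, 91.2 and 20.1 in controls. Control replicates 2 and 3 lay within the knockout range and replicates 1 and 4 below it, and the log2 fold change was 0.71 (SE 0.49, limma adjusted p = 0.331). Without control replicates 1 and 4 it was -0.07 (limma adjusted p = 0.918). Efnb1, another B-type ephrin, stood at 24.3, 40.4 and 54.2, against 21.3, 20.5, 24.8 and 18.8 (log2 fold change 0.80, SE 0.28, limma adjusted p = 0.0714). It was called higher without knockout replicate 1 (log2 fold change 1.10, limma adjusted p = 0.016).

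Epha2, Epha4, Epha10 and Efna2 averaged between 5.42 and 21.4 normalized counts in knockouts and between 5.13 and 18.3 in controls, with log2 fold changes from -0.12 to 0.26. Slit2, the single Slit member, stood at 6.08, 14.4 and 16.3 in knockouts, against 16.3, 5.87, 7.96 and 3.76 in controls (log2 fold change 0.55, SE 0.50, limma adjusted p = 0.464). At this depth, 1 read was worth between 0.885 and 1.25 normalized counts, and 6 members had means under 10.

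The size of several differences depended on which controls were used. For 7 of the 11 called members both control replicates 2 and 3 lay nearer the knockout side than both replicates 1 and 4. The same order held for 22.4% of the 2919 genes called overall. Without replicates 1 and 4, 9 of the 11 had a smaller fold change, which for the 7 members in that order follows from the order itself. The matching share over all called genes was not counted. In this fit 7 of the 11 were still called. Sema6a, which reached the minimum through its knockouts alone, was among these 7 (limma adjusted p = 0.0474). All 11 kept their sign, which leaving out libraries could not change for the 10 whose groups did not overlap. Without replicates 2 and 3, 8 of the 11 were still called and Sema4d was called as well, 9 members in all, where 8.58% of all genes were called.

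**Figure D4:**
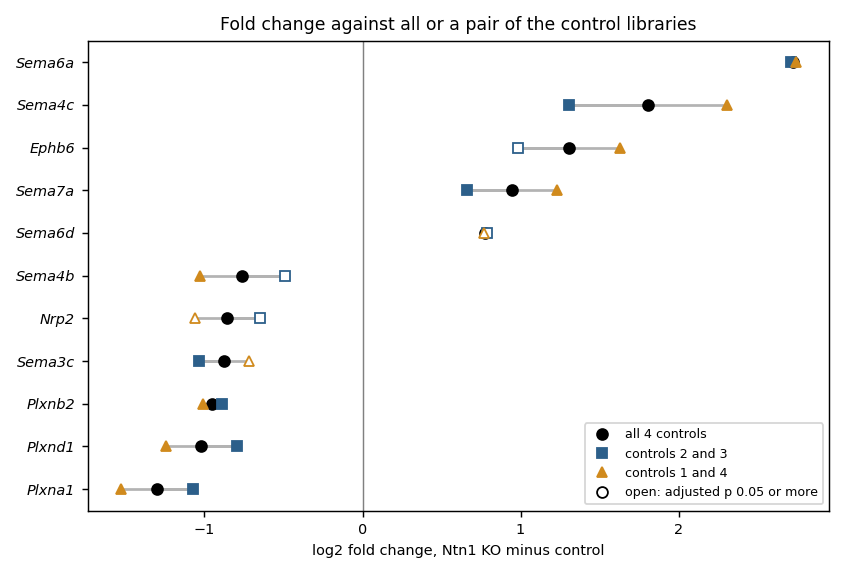
Log2 fold change of the 11 called members, knockout minus control, against all 4 controls (circles), controls 2 and 3 alone (squares) and controls 1 and 4 alone (triangles); open symbols did not pass an adjusted p under 0.05. The squares of Sema4c (1.31) and Plxnd1 (-0.79) lie nearer to 0 than their triangles (2.31 and -1.25), and those of Sema6d and Sema6a nearly coincide.

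Genes that act with these receptors went both ways. Of 87 tested partners and effectors from 4 lists, 9 were higher and 17 lower in knockouts, 29.9% against 20.0% of all genes, with a median log2 fold change of -0.09 against 0.01. Without control replicates 1 and 4, 5 were higher and 7 lower, and 10 were lower without control replicate 2 or knockout replicate 2 and 11 without control replicate 4. Of 17 semaphorin coreceptors and partners none rose and 4 fell (23.5%). Trem2, a lipid receptor that joins plexin A1 in a complex with the adaptor DAP12, stood at 193, 194 and 162 normalized counts in knockouts, against 489, 309, 563 and 548 in controls (log2 fold change -1.35, SE 0.20, limma adjusted p = 0.00277). Met, the hepatocyte growth factor receptor that associates with B-type plexins, stood at 1332, 1474 and 1997, against 3419, 4291, 3387 and 4090.4 (log2 fold change -1.26, SE 0.14, limma adjusted p = 0.00104). Both genes lay lower in every knockout than in any control, but they were named for the lowest p of their list. Groups did not overlap for 32.4% of all genes tested, in either direction. The low B-type plexin genes Plxnb1 and Plxnb3 had overlapping groups. Tyrobp, which encodes DAP12, was not called (log2 fold change 0.21, limma adjusted p = 0.282), nor was Cd72 (log2 fold change -0.18, limma adjusted p = 0.374).

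Of 33 tested genes on the list of semaphorin and plexin effectors 4 rose and 4 fell (24.2%, near the 20.0% of all genes). Rras2, a Ras-family GTPase, rose by 0.91 on the log2 scale (SE 0.10, limma adjusted p = 0.00104) and Farp1, a guanine nucleotide exchange factor, by 0.94 (limma adjusted p = 0.00213). Micall2, listed beside the Mical genes and not itself shown to act under plexins here, fell by 0.73 (limma adjusted p = 0.0177). Arhgef11, an exchange factor that binds B-type plexins, fell by 0.36 (limma adjusted p = 0.0199). Of 22 ephrin effectors 3 rose and 5 fell (36.4%, against 20.0% of all genes). Fyn, a Src-family kinase, rose by 0.77 (limma adjusted p = 0.000904) and Chn2, a chimaerin that turns off Rac, by 1.40 (limma adjusted p = 0.00226), while the kinase gene Abl2 fell by 0.60 (limma adjusted p = 0.00773) and Itsn1, an exchange factor for Cdc42, by 0.75 (limma adjusted p = 0.00774).

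Of 15 Slit and Robo effectors 2 rose and 4 fell (40%, against 20.0% of all genes), although no Robo gene reached the minimum. Gpc1, a glypican that binds Slits, stood at 522, 368 and 369 normalized counts in knockouts, against 238, 210.4, 272 and 204 in controls (log2 fold change 0.85, limma adjusted p = 0.00613). Vasp, an actin regulator, rose by 0.49 (limma adjusted p = 0.0317). Sdc1, the syndecan 1 gene, stood at 452, 459 and 846, against 1959, 1459, 1317 and 2105 (log2 fold change -1.58, SE 0.24, limma adjusted p = 0.00316). Myo9b, an unconventional myosin, fell by 0.42 (limma adjusted p = 0.00507).

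**Figure D5:**
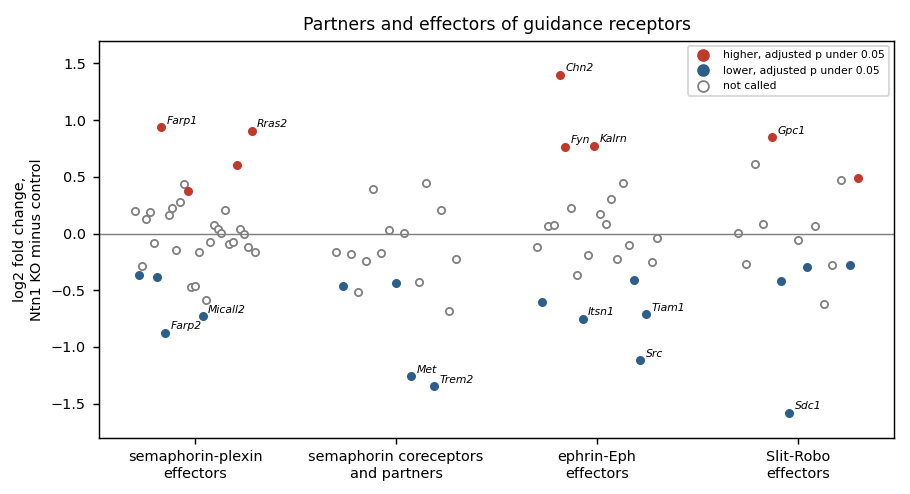
Log2 fold change, knockout minus control, of 87 tested partners and effectors in 4 lists; filled points passed an adjusted p under 0.05, and the ones farthest from 0 are named. Sdc1 (-1.58), Trem2 (-1.35) and Met (-1.26) are the lowest points and Chn2 (1.40) is the highest.

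Several lists of cell type markers differed between the same libraries. Over all genes tested, 20.0% were called, 9.33% higher and 10.7% lower. All 10 natural killer markers were higher in knockouts, where their summed normalized count was 44523 to 49148, against 9593 to 15159 in controls. Of 12 markers of monocytes and recruited macrophages 1 was higher and 7 lower (sums of 18133 to 32651 and 30064 to 46120), and of 12 resident alveolar macrophage markers none was called by limma (75994 to 128328 and 59557 to 96263). Of 15 epithelial markers 9 were higher (1779.6 to 2424 and 1307 to 1377), as were 5 of 10 neutrophil markers (22333 to 66629.7 and 14645 to 17649) and 3 of 11 dendritic cell markers (3696 to 5078 and 2793 to 3081). Of 12 T cell markers 2 were higher and 1 lower (10502 to 14135 and 11082 to 12189.7). Of 6 B and plasma cell markers 1 was higher (591 to 960.3 and 521 to 706). Of 8 endothelial and stromal markers 1 was higher and 1 lower (1676 to 2106 and 1255 to 1594). The shares called for T cell, B and plasma cell, and endothelial and stromal markers were 25%, 16.7% and 25%, near that of all genes. Of 6 erythroid markers none was called (6929.7 to 136629.8 and 1254 to 26199.9). No marker with a row in the table was at 0 in every library, and the part of cell makeup in the changes of guidance genes was not tested.

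Neighbouring genes were called at a share near that of all genes, 20.0%. Of the 110 tested genes within 5 places of a called member on its chromosome, 18 were called (16.4%). Of these, 14 went in the same direction as the member and 4 in the other. Over all genes tested 9.33% were called higher and 10.7% lower, and a shared direction of neighbours was not tested.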

How the data were processed

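RNA from 7 libraries of BAL cells was compared, 3 from Ntn1 knockout and 4 from control mice, grouped by the genotype in the titles. The submitters' processing notes name DESeq2, HTSeq, STAR 2.5.3a and cutadapt 1.15 and the build GRCm38 (mm10). Strand setting and annotation are not given there. The authors deposited 1 table with a signal column per library (reads per gene divided by a size factor) and, per the file headers, a log2 fold change, a test score and p-values, raw and adjusted. All values (100%) were whole multiples of 1 step per library within 0.01, so whole reads were recovered.

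limma 3.58.1 (R 4.3.3, eBayes with trend) was fitted to log2(normalized count + 1) for the 14562 genes with a mean of at least 5, and p-values were adjusted by Benjamini-Hochberg. Fold changes on this scale understate those of low genes. Ntn1 was tested with an exact permutation over 35 splits. GENCODE M21 (GRCm38) gave positions and exon lengths for 99.8% of the identifiers, and RefSeq gave the promoters. Of the listed partners and markers, those with no row were not analysed here, and those with a mean under 5 entered the summed levels but were not tested. The procedure was tested on simulated data.

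The members and gene lists were chosen with earlier results of these data known. All 30 members are described, the 11 called ones in full. Partners named are up to 2 called genes per direction and list by p; Marco, Itgb1, Tyrobp, Cd72 and Zyx were named after their values were seen. Alternatives were other pseudocounts, filters and scalings, edgeR 4.0.16, DESeq2 1.42.0 and limma-voom on the recovered reads, the title number as a block, and libraries left out.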

Additional observations from a re-analysis of the deposited data

Results flagged for a closer look

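Plxnb2 in the control group had 1 library far from the others. Control replicate 4 stood at 3115 normalized counts and the other controls at 2551 to 2639, a gap of 0.845 times the range of the 4 libraries. The knockouts, at 1261 to 1498, lay below all of them. Chance alone sets apart about 1 in 20 groups of this size, and 30 genes were examined. Without control replicate 4 the log2 fold change was -0.88 (limma adjusted p = 0.00203; 0.00123 to 0.00358 with each library left out in turn).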

How the results depend on the processing

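Pseudocounts of 0.5 and 5, a minimum mean of 10 or none, 3 other scalings, edgeR, DESeq2 and limma-voom kept the 5 higher and 6 lower members within 1.5 times. All 11 kept their sign under every alternative run. Leaving out libraries could not change it for the 10 whose groups did not overlap. Plxnb2, Plxna1, Plxnd1 and Sema4c were called under all 20 alternatives; Sema6a had 19, since its mean lies under the minimum of 10. With the title number as a replicate block, 2 members were higher and 4 lower, 4 partners were lower, and 433 genes were higher and 399 lower. Sema7a, Sema4b, Ephb6, Nrp2 and Sema6d lost their calls in this fit. Libraries with the same title number did not deviate together (correlations -0.158, -0.0198 and -0.155), but so few values cannot exclude a pairing. The column headers number the knockouts 2, 3 and 4 where the titles have 1, 2 and 3. A block by header number was not fitted. Without control replicates 1 and 4, 620 genes were higher and 598 lower, with 3 members higher, and 5 partners higher and 7 lower. Without control replicates 2 and 3, 623 genes were higher and 626 lower, with 5 partners higher and 8 lower. With each library left out in turn, 2 to 6 members were higher and 4 to 7 lower, 6 to 8 partners higher and 10 to 15 lower, 698 to 1170 genes higher and 859 to 1393 lower, and the Ntn1 difference was -1.92 to -1.21. The cause was not tested, apart from the fewer libraries in each of these fits. Depth limits the members with means under 10, where 1 read is a large part of the value.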

Other observations

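Among matching genes under the minimum, Efna5, an A-type ephrin, stood at 5.07, 5.77 and 3.61 normalized counts in knockouts, against 1.02, 0.978, 2.65 and 1.25 in controls. Ephb2 stood at 4.06, 7.69 and 4.52, against 3.05, 3.91, 1.77 and 0. Robo2, the only Robo gene of the table that matched, stood at 1.01, 6.73 and 1.81, against 1.02, 0.978, 2.65 and 1.25. None of these was tested, and a count of 0 allows up to 2.65 to 3.76 normalized counts in a library.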
